A study of Mus musculus with 12 samples.

Results

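The BCL2 family decides whether a cell opens its mitochondria and dies. The 10 family genes described here were selected by name from the 54532 genes of the expression table, and all 10 were well enough expressed to be tested. They hold 4 survival genes (Bcl2, Bcl2l1, Mcl1 and Bcl2l2), the pore formers Bax and Bak1, and 4 BH3-only genes (Bad, Bid, Bcl2l11 and Bbc3). Total RNA was taken from mammary glands with hyperplasia, of FVB/N females given 2 mg/ml doxycycline in the drinking water, with titles that carry 2 wk. All mice were of the MIC model, in which doxycycline turns on the polyoma middle T oncogene and Cre recombinase in mammary epithelium. The groups were MIC Stat3 ko, MIC Chi3l1 ko and MIC WT, with 4 libraries each, whose numbers 1 to 4 are only names. The labels give neither the alleles nor the ages, and do not say in which cells Chi3l1 was deleted. Sample titles speak of lesions, while the labels name the gland as the source and no sort. How much tissue around the lesions was taken is thus not known, and the samples are called glands here. With no sort, RNA of cells without Cre is part of the libraries.

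In this pathway, BAX and BAK1 form pores in the outer mitochondrial membrane that release cytochrome c and set off the caspases. Survival proteins hold the pore formers and the BH3-only proteins in check, and BH3-only proteins report damage, lost growth signals or death receptor activity. In the mammary gland the pathway clears luminal cells during ductal hollowing and after weaning. STAT3 is known there for driving epithelial cell death in involution, while in many tumours it raises the survival genes Bcl2l1 and Mcl1. Chi3l1 encodes a secreted chitinase-like protein and is listed under its mouse symbol Chil1.

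For the 2 family genes that the Stat3 ko results turn on, 1 promoter each is shown here, from RefSeq on GRCm38.p6. Each runs from 250 bases before to 50 bases after the transcription start. The genes are Bcl2l11 (chr2:128125788-128126087, plus strand), which encodes BIM, and Bid (chr6:120916775-120917074, minus strand). Bcl2l11 has another RefSeq window, chr2:128127325-128127624, which is not shown. Capitals mark the GC box GGGCGG on either strand, the letters bound by SP1-type factors.
Bcl2l11: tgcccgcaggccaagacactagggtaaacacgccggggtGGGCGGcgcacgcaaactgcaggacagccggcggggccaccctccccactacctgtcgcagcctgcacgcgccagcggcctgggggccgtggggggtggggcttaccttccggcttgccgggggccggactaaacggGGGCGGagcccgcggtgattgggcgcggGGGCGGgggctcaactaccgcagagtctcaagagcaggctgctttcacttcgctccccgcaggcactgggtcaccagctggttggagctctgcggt
Bid: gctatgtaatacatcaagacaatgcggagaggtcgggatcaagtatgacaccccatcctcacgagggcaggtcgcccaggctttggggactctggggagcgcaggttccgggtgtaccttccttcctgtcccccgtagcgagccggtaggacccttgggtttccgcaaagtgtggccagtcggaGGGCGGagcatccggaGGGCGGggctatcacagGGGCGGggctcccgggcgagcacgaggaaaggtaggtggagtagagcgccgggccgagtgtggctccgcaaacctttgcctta
Each of these windows held 3 GC boxes. All 10 members matched RefSeq promoters, in 16 windows, and both strands of each window were searched. The STAT core TTCNNNGAA was in 0 of the 16 windows and in 8.3% of all 32851 RefSeq windows. Its stricter form TTCCNGGAA, which lies within the core, was in 0 of 16 and in 1.15% of all windows. The FOXO letters TTGTTTAC were in 1 window, of Bbc3 (1.23% of all windows), and the GC box in 11 (35.7%). These matches describe letters in short windows and say nothing of binding.

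The libraries held 16217143 to 22607123 gene counts. Stat3 stood at 12.2 to 18.7 FPKM (fragments per kilobase of gene, scaled to library size) in Stat3 ko glands, against 46.2 to 49.7 in WT glands. Chil1 stood at 0.00 to 0.0323 FPKM in Chi3l1 ko glands, 4.92 to 17.6 in Stat3 ko glands and 107 to 212 in WT glands. Luminal epithelial markers were expressed in every library, with sums of 1100 to 2844 FPKM. All 4 Stat3 ko libraries stood outside the WT range in several marker lists, and Stat3 ko 1 and 2 also in luminal markers. Stat3 ko 1 held 4725 FPKM of summed adipocyte markers, against 43.9 to 153 in WT glands. Stat3 ko 2 held 305 FPKM of T cell and 830 of B cell markers, against 18 to 38.6 and 9.10 to 21.6 in WT glands. Stat3 ko 3 held 178 FPKM of T cell, 329 of B cell and 420 of adipocyte markers. Stat3 ko 4 held 2054 FPKM of macrophage, 4650 of skeletal muscle, 250 of adipocyte and 32.8 of B cell markers, against at most 1250, 2243, 153 and 21.6 in WT glands. Luminal sums were 1100 and 1131 FPKM in Stat3 ko 1 and 2, 2233 and 2421 in Stat3 ko 3 and 4, and 1991 to 2844 in WT glands. Over whole marker lists, limma called 2 of 9 tested luminal and 1 of 3 tested neutrophil markers lower in Stat3 ko than in WT. Higher were 3 of 8 adipocyte, 3 of 10 T cell and 5 of 8 macrophage markers. Also higher were 2 of 4 tested B cell (of 8 listed), 1 of 6 endothelial and 1 of 6 fibroblast markers. Of 6 tested basal and 6 skeletal muscle markers 0 were called. Over all tested genes 8.39% were called lower and 5.61% higher. Mitochondrially encoded genes took 4.79% and 3.37% of counts in Stat3 ko 1 and 2, and Chi3l1 ko 2 was the other library above 2%.

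Among the family genes, Mcl1 was the most abundant in every group. In Stat3 ko glands the order of mean levels per length was Mcl1 (114 ± 22.0 FPKM), Bak1 (37.9 ± 12.4), Bax (23.9 ± 4.63), Bcl2l1 (20.6 ± 5.48), Bid (13.2 ± 4.23), Bad (11.2 ± 3.29), Bcl2l2 (9.90 ± 4.16), Bbc3 (7.96 ± 1.26), Bcl2l11 (5.94 ± 1.26) and Bcl2 (4.48 ± 2.28; SD, n = 4 throughout). In Chi3l1 ko glands Mcl1 stood at 109 ± 3.54, Bak1 at 49.6 ± 4.72, Bax at 22.0 ± 2.18, Bcl2l1 at 18.2 ± 2.00, Bad at 14.4 ± 2.59, Bid at 10.2 ± 1.03, Bcl2l11 at 8.79 ± 1.42, Bcl2l2 at 8.37 ± 0.893, Bbc3 at 7.51 ± 0.553 and Bcl2 at 3.22 ± 0.521. In WT glands the levels were Mcl1 116 ± 7.87, Bak1 50 ± 6.33, Bax 27.3 ± 1.84, Bcl2l1 26.0 ± 6.99, Bad 14.8 ± 1.43, Bcl2l11 9.10 ± 1.28, Bid 9.03 ± 0.546, Bcl2l2 8.10 ± 0.392, Bbc3 7.20 ± 1.33 and Bcl2 3.03 ± 0.288. The place of Bcl2l11 was thus ninth of the 10 in Stat3 ko glands, seventh in Chi3l1 ko glands and sixth in WT glands. Ranges of Bax and Bcl2l1 overlapped in every group, and those of Bcl2l11, Bid, Bcl2l2 and Bbc3 overlapped in WT glands, so their order is not fixed there. In Chi3l1 ko glands the range of Bcl2l11 overlapped those of Bid, Bcl2l2 and Bbc3. In Stat3 ko glands the ranges of Bid and Bad overlapped, as did those of Bcl2l11, Bcl2l2, Bbc3 and Bcl2. These orders, and the places of Bcl2l11, are thus of means only. For 8 of the 10 members the coefficient of variation was largest in Stat3 ko glands, up to 50.8% for Bcl2. Behind these levels lay 225 counts or more of every member in every library.

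**Figure D1:**
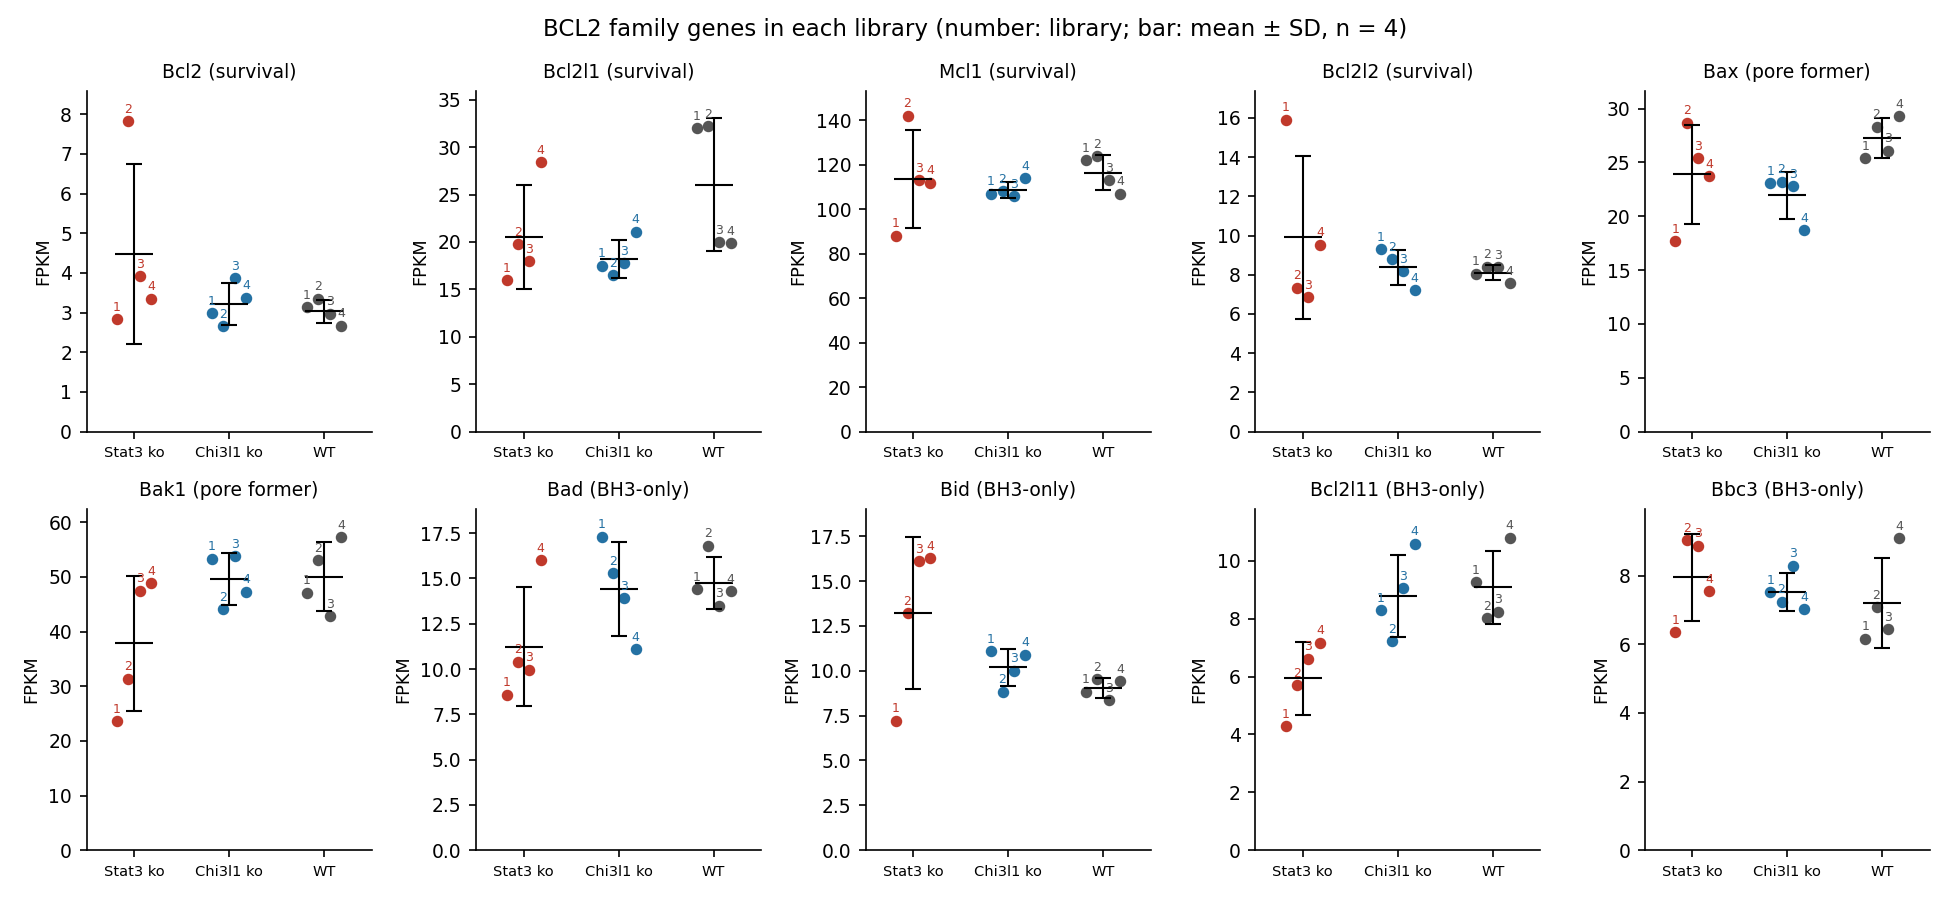
FPKM of each family gene (vertical axes, from 0) in Stat3 ko (red), Chi3l1 ko (blue) and WT (grey) glands. Each point is a library with its number, and bars give the mean ± SD of 4. All 4 Stat3 ko values of Bcl2l11 (4.28 to 7.17) lie under the WT values (8.03 to 10.8), and Bid is over 13 FPKM in Stat3 ko 2, 3 and 4 but 7.23 in Stat3 ko 1.

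Stat3 ko was set against WT to ask what loss of STAT3 changes in these glands. Of the 10 members, Bcl2l11 was called lower and 0 were called higher by limma (Benjamini-Hochberg adjusted p under 0.05 over 13643 tested genes). Among all tested genes 14.0% were called, 8.39% lower and 5.61% higher, so 1 of 10 is near the background. At an unadjusted p under 0.05 there were 3 members (Bcl2l11, Bid and Bad), against 34.1% of all genes. edgeR on recovered counts called 1 member (17.3% of all genes) and DESeq2 called 2, Bcl2l11 and Bid (26.8%). The median log2 fold change was -0.13 over the members and -0.02 over all tested genes.

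BIM, the product of Bcl2l11, binds every survival protein and can also switch on BAX and BAK1 directly. Bcl2l11 stood at 4.28, 5.71, 6.62 and 7.17 FPKM in Stat3 ko 1 to 4, at 8.30, 7.22, 9.05 and 10.6 in Chi3l1 ko 1 to 4, and at 9.26, 8.03, 8.25 and 10.8 in WT 1 to 4. Every Stat3 ko library was below every library of both other groups, with Stat3 ko 4 (7.17) just under Chi3l1 ko 2 (7.22). Against WT, Bcl2l11 fell by 0.55 ± 0.15 on the log2(FPKM + 1) scale (SE, 95% interval -0.89 to -0.22, limma adjusted p = 0.0369). Groups without overlap in this direction were found for 11.6% of all genes. Against Chi3l1 ko the difference was -0.50 ± 0.15 (interval -0.84 to -0.17), with limma adjusted p = 0.051, and edgeR (0.0473) and DESeq2 (0.0131) passed it.

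The Bcl2l11 call against WT was not stable. Of the 12 fits that each leave out 1 library, 4 kept it. It ended without Stat3 ko 1 (limma adjusted p = 0.0604) or 2 (0.0783), Chi3l1 ko 1 (0.0547) or 3 (0.0540), and WT 1 (0.0988), 2 (0.0505), 3 (0.0633) or 4 (0.102). Without the 3 libraries above 2% mitochondrial counts the difference was -0.35 with adjusted p = 0.136. The luminal sums of Stat3 ko 3 and 4 lay within the WT range while their Bcl2l11, at 6.62 and 7.17 FPKM, lay below the WT minimum of 8.03. In the same libraries the macrophage (1268 and 2054 FPKM), adipocyte (420 and 250) and B cell (329 and 32.8) sums were above those of all 4 WT libraries. The part that cell makeup has in the result was not tested, and in bulk tissue fewer cells of a type and less RNA per cell cannot be told apart.

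**Figure D2:**
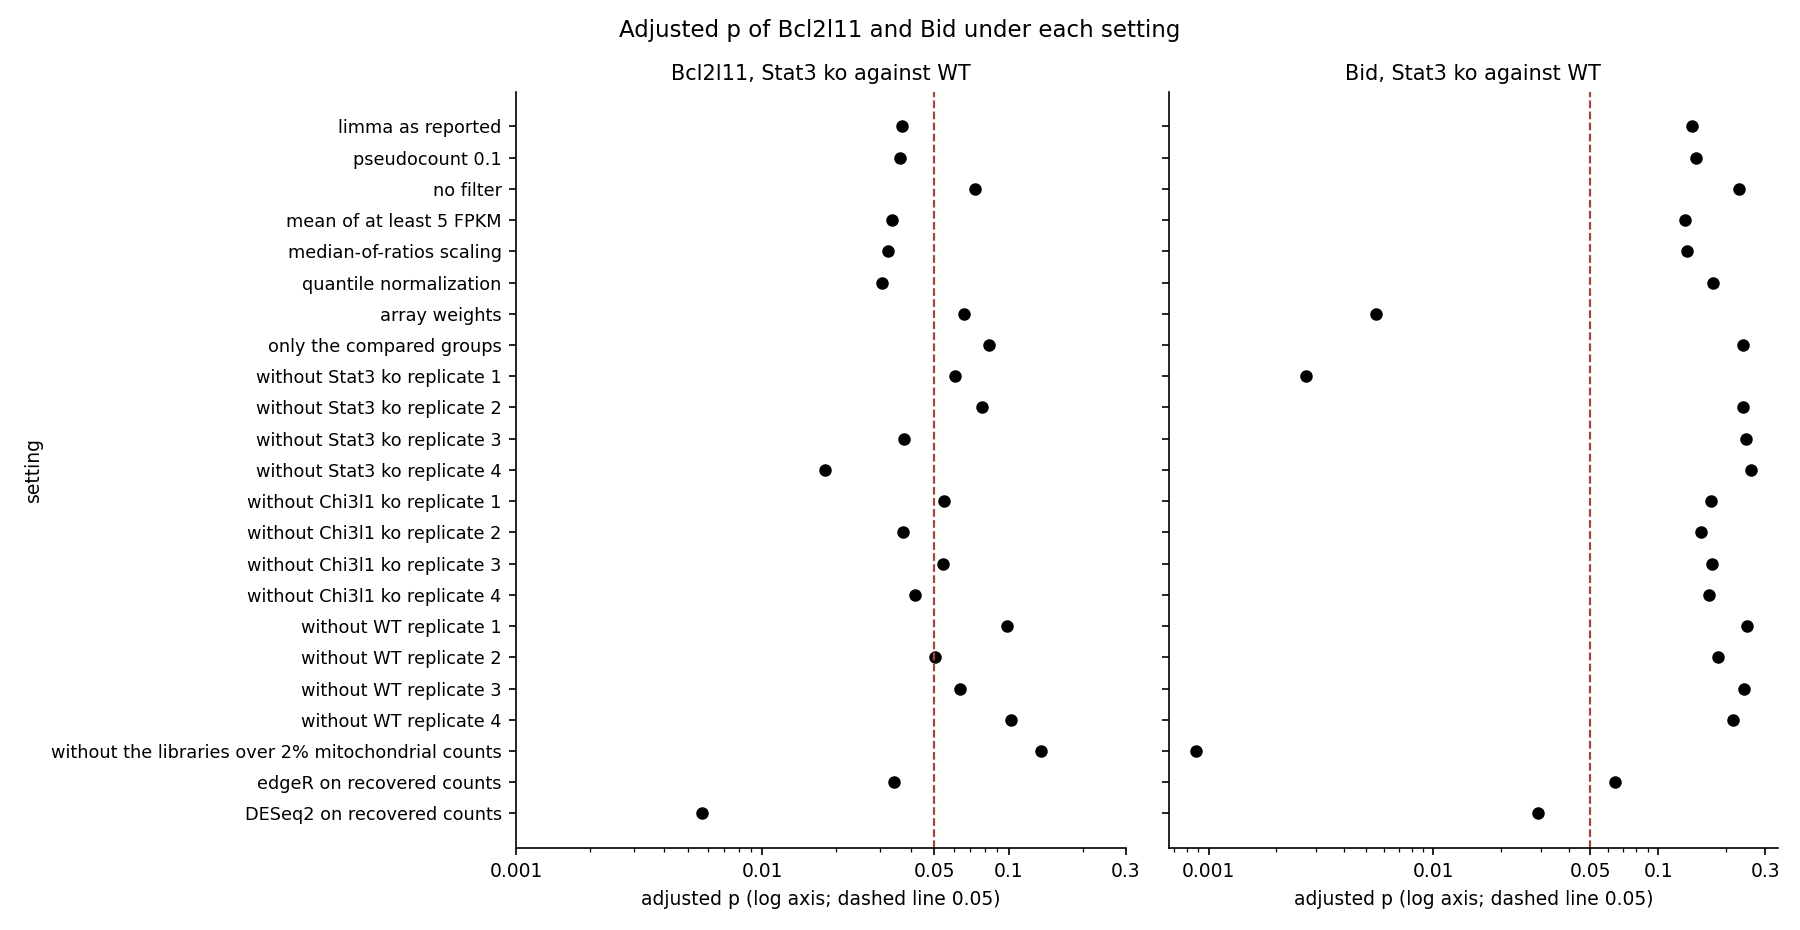
Adjusted p (horizontal log axis) of Bcl2l11 and Bid for Stat3 ko against WT under the reported fit and each alternative (vertical axis), with a dashed line at 0.05. Bcl2l11 lies at 0.0369 as reported and between 0.00566 and 0.136 over all settings, and Bid lies left of the line in 4 settings, with 0.00088 without the libraries above 2% mitochondrial counts.

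BID carries the death receptor signal to mitochondria once caspase 8 has cut it. Bid stood at 7.23, 13.2, 16.1 and 16.3 FPKM in Stat3 ko 1 to 4, at 11.1, 8.83, 10 and 10.9 in Chi3l1 ko 1 to 4, and at 8.83, 9.53, 8.35 and 9.41 in WT 1 to 4. Stat3 ko 2, 3 and 4 were above all 8 other libraries, and Stat3 ko 1, the library rich in adipocyte markers, was below all of them. Over the 4 libraries the difference from WT was 0.45 ± 0.20 (limma adjusted p = 0.142), and edgeR did not pass it (0.0646) while DESeq2 did (0.0293). Without Stat3 ko 1 it was 0.69 (limma adjusted p = 0.0027), and 0.53 against Chi3l1 ko (0.00859). Without the 3 libraries above 2% mitochondrial counts it was 0.78 against WT (adjusted p = 0.00088) and 0.56 against Chi3l1 ko (0.00564). The 2 libraries this last Stat3 ko value rests on, Stat3 ko 3 and 4, held 178 and 31.5 FPKM of T cell markers and, as given for Bcl2l11, macrophage, adipocyte and B cell sums above all WT libraries. The part of these cells in the Bid values was not tested. Bid shares 628 exon bases (17.7%) with Bcl2l13 on the opposite strand, a gene at 7.95 to 14.2 FPKM here, and the strand setting of the counting is not given in the sources used here, so reads of that stretch cannot be told apart.

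The ratio of Bcl2l11 to Bid was chosen after the values were seen, and pairs a member with a lower mean in Stat3 ko and a member with a higher one. That the groups stand apart in it is thus no added evidence, and the part of cell makeup was not tested. The ratio was 0.592, 0.432, 0.412 and 0.439 in Stat3 ko 1 to 4, 0.747 to 0.976 in Chi3l1 ko glands and 0.843 to 1.15 in WT glands. Since both genes are per length and from 1 library, library size does not enter this ratio, and the highest Stat3 ko value is the one of Stat3 ko 1, where both genes were at their lowest.

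Of the other BH3-only genes, Bad, whose protein frees the pore formers when growth factor signals are lost, stood at 8.58, 10.4, 9.97 and 16.0 FPKM in Stat3 ko 1 to 4, at 11.1 to 17.3 in Chi3l1 ko glands and at 13.5 to 16.8 in WT glands. Stat3 ko 1 to 3 were below all 8 other libraries, and Stat3 ko 4 was not. The difference from WT was -0.40 ± 0.17 (limma adjusted p = 0.136), and without Stat3 ko 4 it was -0.57 (0.0170), or -0.52 against Chi3l1 ko (0.0246). Without the libraries above 2% mitochondrial counts it was -0.20 (0.616). Bad shares 524 exon bases (20.5%) with Gpr137 on the opposite strand, with the same limit as for Bid. Bbc3, which encodes the p53 target PUMA, had overlapping groups, at 6.35 to 9.04 FPKM in Stat3 ko, 7.02 to 8.29 in Chi3l1 ko and 6.17 to 9.10 in WT glands. Its difference between Stat3 ko and WT was 0.13 ± 0.13 (interval -0.15 to 0.41).

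The pore formers did not pass in this comparison. Bak1 stood at 23.6, 31.4, 47.5 and 48.9 FPKM in Stat3 ko 1 to 4, at 44.1 to 53.8 in Chi3l1 ko glands and at 42.8 to 57.2 in WT glands. Its low values were those of Stat3 ko 1 and 2, and Stat3 ko 3 and 4 lay inside the WT range. In Stat3 ko 1 and 2 luminal sums were 1100 and 1131 FPKM, and mitochondrial genes took 4.79% and 3.37% of counts. Their endothelial sums were 115 and 65.2 FPKM, against 25.0 to 37.9 in WT glands. What part cell makeup has in the Bak1 values was not tested. The difference from WT was -0.45 ± 0.21 (limma adjusted p = 0.151), and -0.04 without the libraries above 2% mitochondrial counts (0.873). Bax stood at 17.7, 28.7, 25.4 and 23.7 FPKM in Stat3 ko 1 to 4 and at 25.4 to 29.3 in WT glands, a difference of -0.20 ± 0.13 (0.302). The ratio of Bak1 to Bax was 1.34, 1.09, 1.87 and 2.06 in Stat3 ko 1 to 4, 1.90 to 2.53 in Chi3l1 ko glands and 1.64 to 1.95 in WT glands.

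No survival gene passed in Stat3 ko. Mcl1, whose short-lived protein many epithelial and immune cells need, stood at 88.1, 142, 113 and 112 FPKM in Stat3 ko 1 to 4 and at 107 to 124 in WT glands, a difference of -0.05 ± 0.13 (interval -0.33 to 0.22). Bcl2l1, which encodes BCL-XL, stood at 16.0, 19.8, 18 and 28.4 FPKM in Stat3 ko 1 to 4 and at 32.0, 32.2, 20 and 19.9 in WT 1 to 4. The WT libraries formed a high and a low pair, and Stat3 ko 4 lay between them. The Bcl2l1 difference was -0.32 ± 0.20 (interval -0.77 to 0.12, limma adjusted p = 0.279).

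Bcl2 and Bcl2l2 were each set by 1 library. Bcl2, which lymphocytes rely on for survival, stood at 2.83, 7.83, 3.92 and 3.35 FPKM in Stat3 ko 1 to 4 and at 2.67 to 3.35 in WT glands. The value of 7.83 was in Stat3 ko 2, the library with the highest T and B cell sums, and without it the difference from WT was 0.11 instead of 0.37 ± 0.22. Bcl2l2, which encodes BCL-W, stood at 15.9 FPKM in Stat3 ko 1 and at 6.85 to 9.53 in the other 3 Stat3 ko libraries, against 7.57 to 8.41 in WT glands. Without Stat3 ko 1 its difference turned to -0.04, against 0.19 ± 0.20 with it. What part cell makeup has in these values was not tested. Summed over the 4 survival genes, the level was 123 to 177 FPKM in Stat3 ko, 136 to 146 in Chi3l1 ko and 137 to 168 in WT glands, and Mcl1 made up 71.8% to 80.2%, 78.1% to 79.4% and 73.8% to 78.3% of it.

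**Figure D3:**
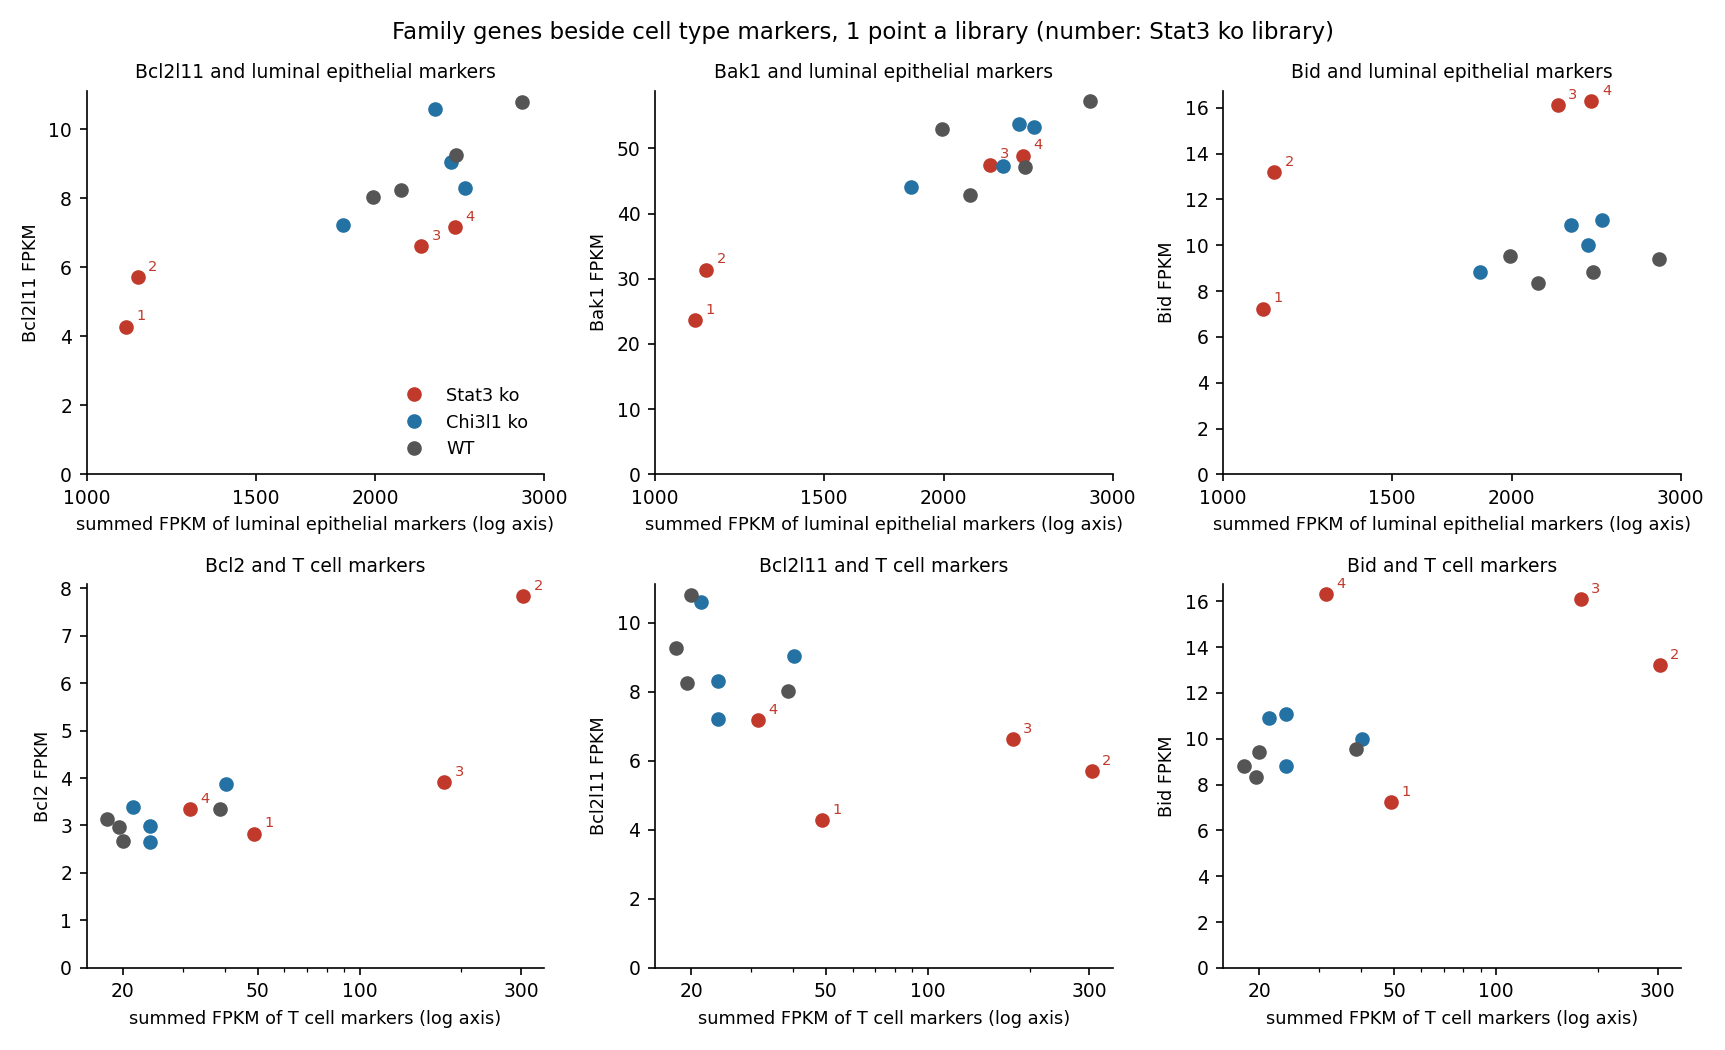
FPKM of family genes (vertical axes) against summed FPKM of luminal epithelial markers (top, log axis) or T cell markers (bottom, log axis), 1 point a library, in Stat3 ko (red, numbered), Chi3l1 ko (blue) and WT (grey). Stat3 ko 3 and 4 lie among the other groups in luminal markers, though not in all other marker lists, and below them in Bcl2l11 (6.62 and 7.17) and above them in Bid (16.1 and 16.3), while their Bak1 (47.5 and 48.9) does not stand apart, and Bcl2 is highest in Stat3 ko 2 (7.83).

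Chi3l1 ko was set against WT to ask what loss of the secreted protein changes in the gland. Of the 10 members limma called 0, against 0.00733% of all genes, which is 1 gene. At an unadjusted p under 0.05 there were 2 members, Bcl2l1 and Bax (1.63% of all genes), and edgeR (0.00733%) and DESeq2 (0.0590%) also called 0 members. Bax stood at 23.1, 23.2, 22.8 and 18.7 FPKM in Chi3l1 ko 1 to 4 and at 25.4, 28.3, 26.1 and 29.3 in WT 1 to 4. All Chi3l1 ko values were below all WT values, which held in this direction for 1.36% of all genes. The difference was -0.30 ± 0.13 (interval -0.60 to -0.01, limma adjusted p = 1).

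Bcl2l1 stood at 17.5, 16.5, 17.8 and 21.1 FPKM in Chi3l1 ko 1 to 4, close to WT 3 and 4 (20 and 19.9) and below WT 1 and 2 (32.0 and 32.2). Its difference was -0.46 ± 0.20 (interval -0.91 to -0.02, limma adjusted p = 1), and -0.35 without WT 1 or WT 2. The authors' deposited table for this comparison, which lists genes with p under 0.05, holds these same 2 members, with log2 fold changes of -0.51 for Bcl2l1 and -0.30 for Bax and authors' adjusted p-values of 0.563 and 0.725. The other 8 members differed by -0.10 to 0.16. For Mcl1 the interval was -0.37 to 0.18, and for Bcl2l11 it was -0.38 to 0.29.

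Stat3 ko was also set against Chi3l1 ko. Of the members limma called 0, against 13.2% of all genes (8.0% lower and 5.19% higher). At an unadjusted p under 0.05 there was 1 member, Bcl2l11 (31.7% of all genes), and edgeR (14.2%) and DESeq2 (24.1%) each called it. Bcl2l11 was also the member whose groups did not overlap, lower in Stat3 ko, as for 10.2% of all genes. Since the 3 comparisons share libraries, their values for a gene are not independent. For Bid, the differences were 0.45 ± 0.20 for Stat3 ko against WT, 0.16 ± 0.20 for Chi3l1 ko against WT and 0.29 ± 0.20 for Stat3 ko against Chi3l1 ko. In the authors' deposited table for Stat3 ko against WT, Bcl2l11 had a log2 fold change of -0.63 (authors' adjusted p = 0.0189) and Bid 0.53 (0.154), and the table lists no other member.

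**Figure D4:**
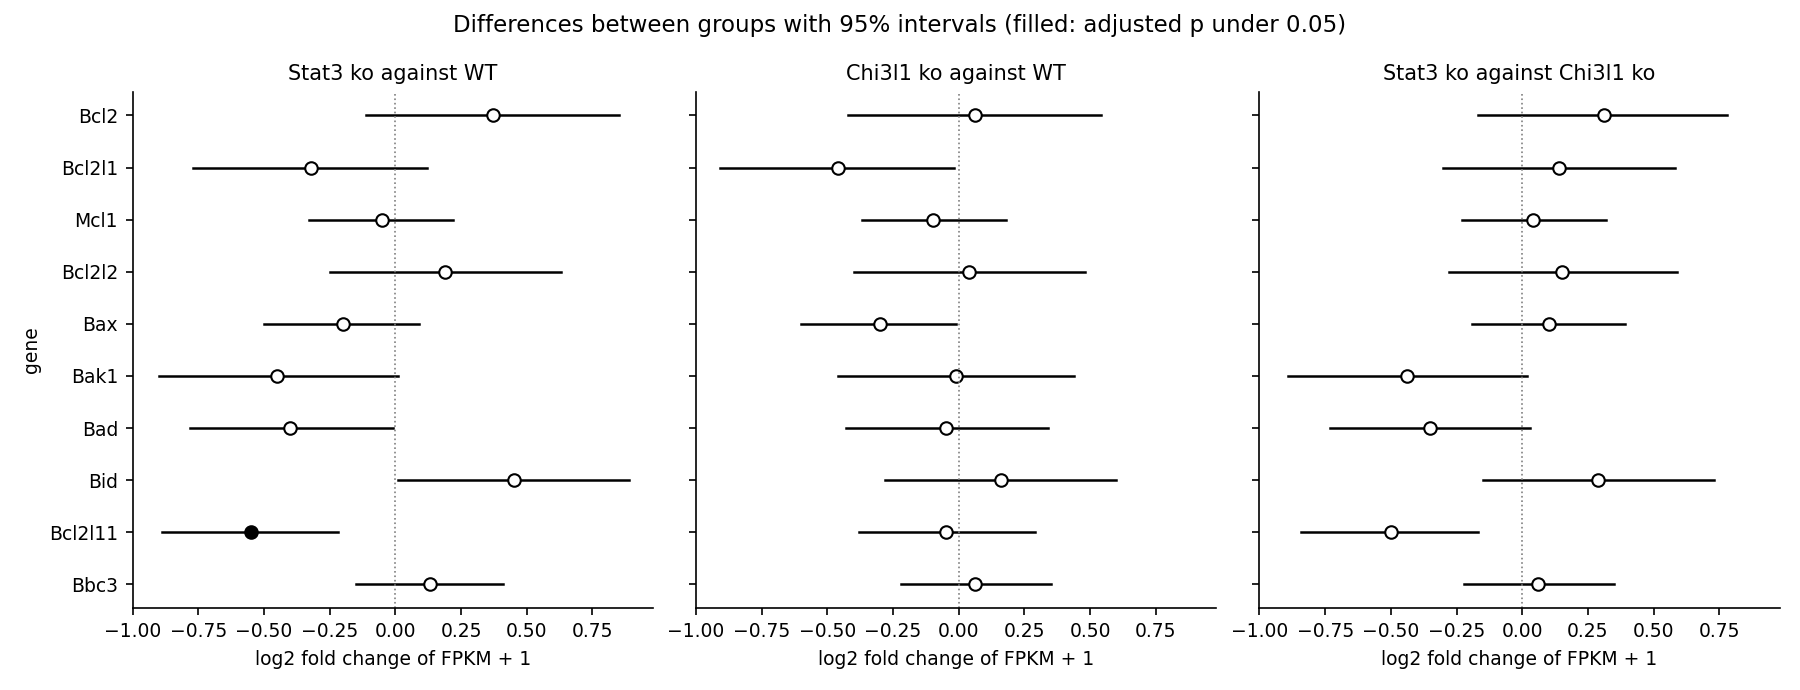
Log2 fold change of FPKM + 1 (horizontal axes) with its 95% interval for each family gene (vertical axis) in the 3 comparisons, filled where the limma adjusted p was under 0.05. The 1 filled point is Bcl2l11 for Stat3 ko against WT (-0.55), and in Chi3l1 ko against WT the intervals of Bcl2l1 and Bax lie just below 0.

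Of the remaining family genes, Bmf and Bcl2l15 were called. Of 15 listed, 13 were tested, and in Stat3 ko against WT 2 were lower and 0 higher, set against 8.39% and 5.61% of all genes. Bmf, a BH3-only gene that works with BIM in clearing the lumen of mammary acini, stood at 12.8, 16.5, 16.7 and 36.9 FPKM in Stat3 ko 1 to 4, at 32.8 to 39.6 in Chi3l1 ko glands and at 37.2 to 41.3 in WT glands. Stat3 ko 4 was close to WT and the other 3 were well below it. Bmf fell by 0.98 ± 0.24 (limma adjusted p = 0.0265), a call that ended without Stat3 ko 2 (0.0650), WT 1 (0.0802), 2 (0.0508), 3 (0.0581) or 4 (0.0645). Against Chi3l1 ko it was -0.86 ± 0.24 (0.0425), called in 1 of 12 refits without 1 library and not by edgeR (0.0733). Bcl2l15, a family gene at 0.199 to 1.05 FPKM in Stat3 ko and 1.31 to 1.83 in WT glands, fell by 0.66 ± 0.19 (0.0407), a call held in 3 of 12 such fits. By edgeR the Bcl2l15 difference was -1.17 and did not pass (adjusted p = 0.0716), while DESeq2 passed it (0.0216). Its lowest library held 9 counts. The part of the differing luminal, adipocyte and lymphocyte marker sums in these list results was not tested. Without the libraries above 2% mitochondrial counts, 0 of the 13 genes were called lower and 2 higher (Bcl2a1d and Bnip3).

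Downstream of the pores, Htra2, a mitochondrial protease that blocks caspase inhibitors, stood at 11, 12.8, 13.3 and 14.2 FPKM in Stat3 ko 1 to 4 and at 9.94, 9.84, 9.68 and 7.55 in Chi3l1 ko 1 to 4. All Stat3 ko values were above all Chi3l1 ko values, and the share of all genes apart in this direction was not computed. WT glands, at 9.71 to 12.1 FPKM, overlapped Stat3 ko, with a difference of 0.24 ± 0.11 between Stat3 ko and WT (limma adjusted p = 0.142). Against Chi3l1 ko the Stat3 ko level was higher by 0.43 ± 0.11 (limma adjusted p = 0.0282), a call held in 8 of 12 refits without 1 library. The call ended without Stat3 ko 2 (0.0592) or Chi3l1 ko 1 (0.0599), 3 (0.0594) or 4 (0.0770). In the comparison with Chi3l1 ko, Htra2 was the 1 gene called higher of 21 genes of the apoptosome, the caspases and their inhibitors. Over all genes 5.19% were called higher there. Against WT 0 of the 21 were called higher, set against 5.61% of all genes, so both counts are near the background.

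Among p53-induced genes, which include death receptors and stress genes, 2 of 17 tested were higher and 3 lower in Stat3 ko than in WT, set against 5.61% and 8.39% of all genes. Without the libraries above 2% mitochondrial counts there were 1 higher and 1 lower, and with 1 library left out 1 to 3 higher and 1 to 4 lower. Sesn1, a stress gene that restrains mTOR signalling, stood at 7.92 to 15.9 FPKM in Stat3 ko and 4.02 to 4.98 in WT glands and rose by 1.12 ± 0.19 (limma adjusted p = 0.00568). The death receptor gene Fas rose by 0.94 ± 0.26 (0.0359), held in 5 of 12 refits without 1 library. Sulf2, a heparan sulfatase, fell by 1.79 ± 0.30 (0.00488). Tnfrsf10b, the mouse TRAIL death receptor, fell by 0.52 ± 0.11 (0.0169), but did not pass when WT 1 (0.0619) or WT 4 (0.0520) was left out. Perp, a p53 target of cell junctions named because it completes the count, fell by 1.07 ± 0.30 (0.0394), with groups that overlapped and a call held in 4 of 12 such refits. The list thus held rises and falls, and its median was -0.05. Against Chi3l1 ko, 1 of the 17 was higher (Sesn1, 1.21 ± 0.19, limma adjusted p = 0.00366). Lower were 2, Tnfrsf10b (-0.68 ± 0.11, 0.00485) and Sulf2 (-1.71 ± 0.30, 0.00570), and each call held in all 12 such fits. Over all genes 5.19% were called higher and 8.0% lower in this comparison.

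Genes of mammary survival and involution signalling were more often lower than higher. In Stat3 ko against WT, 7 of 21 were lower and 1 higher, set against 8.39% lower and 5.61% higher over all genes. The median of the list was -0.17, and the 1 higher gene was Il6st, the shared receptor subunit gp130 (0.84 ± 0.18, held in 11 of 12 refits without 1 library), named after its values were seen. Osmr, the receptor for oncostatin M, stood at 4.80, 2.72, 2.67 and 2.95 FPKM in Stat3 ko 1 to 4 and at 9.43 to 10.1 in WT glands, and fell by 1.35 ± 0.15 (limma adjusted p = 0.00032). Cebpd, a transcription factor of the acute phase and involution, fell by 1.10 ± 0.14 (0.00116). Pik3r1, which encodes the regulatory subunits of PI3 kinase, stood at 37.9, 18.7, 21.0 and 25.3 FPKM in Stat3 ko 1 to 4 and at 52.9 to 69.7 in WT glands, and fell by 1.26 ± 0.18 (0.0025). Tgfb3, a growth factor induced early in involution, fell by 1.25 ± 0.20 (0.0039). These 4 calls held in all 12 refits without 1 library, and the groups did not overlap. Against Chi3l1 ko, 2 were higher (Il6st, held in 3 of 12 refits without 1 library, and Lifr, held in 6) and 6 lower, set against 5.19% and 8.0% of all genes. Among the lower were Osmr at -1.51 ± 0.15 (0.00018), Igfbp5, a binding protein that limits IGF survival signals, at -2.17 ± 0.31 (0.0022), Tgfb3 at -1.37 ± 0.20 (0.00229) and Pik3r1 at -1.17 ± 0.18 (0.00366). Without the libraries above 2% mitochondrial counts, 6 of the 21 were lower and 2 higher in both comparisons. This list was made with STAT3 biology and earlier results of these libraries known, so its count is no independent evidence.

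**Figure D5:**
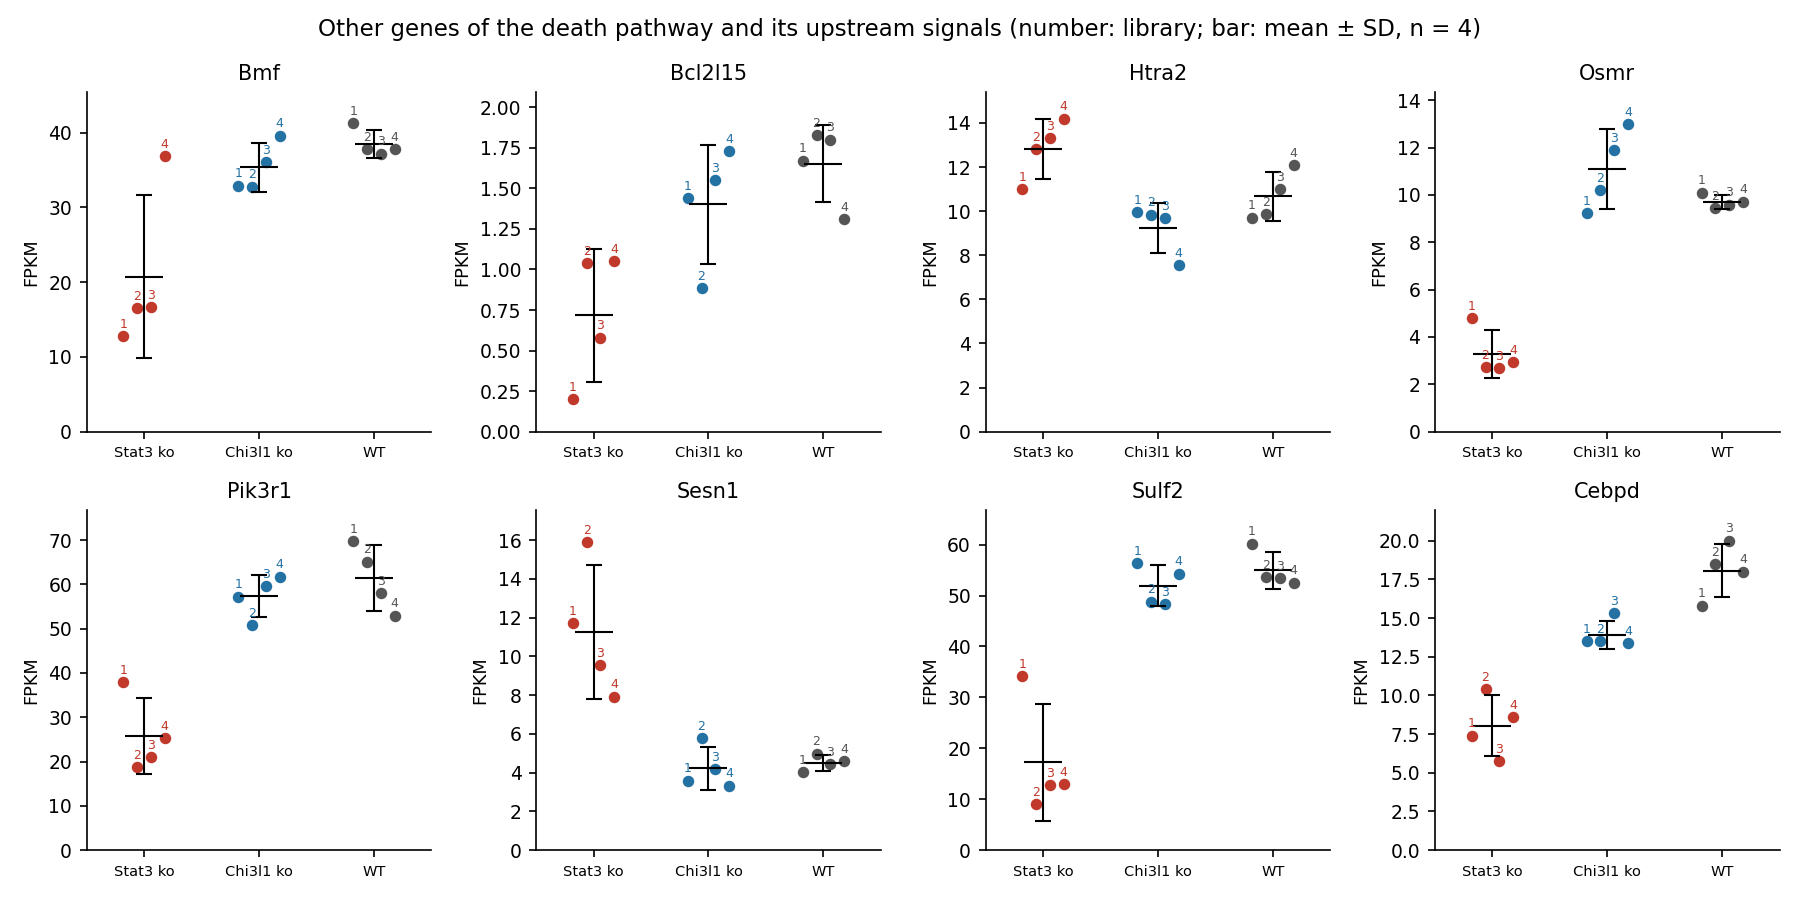
FPKM (vertical axes, from 0) of other genes of the death pathway and its upstream signals in Stat3 ko (red), Chi3l1 ko (blue) and WT (grey) glands, with library numbers and mean ± SD of 4. Osmr, Pik3r1 and Cebpd are lower in all Stat3 ko libraries than in any other library and Sesn1 is higher, while Bmf is at 36.9 in Stat3 ko 4 and 12.8 to 16.7 in the other 3.

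In Chi3l1 ko against WT, limma called 0 members of each of these 4 lists, against 0.00733% of all genes. At an unadjusted p under 0.05 there were 0 of 13 other family genes and 0 of 21 caspase genes. There were 2 of 17 p53 genes and 1 of 21 involution genes, against 1.63% of all genes. In the authors' deposited table for this comparison, Btg2 of the p53 list had a log2 fold change of -0.58 (authors' adjusted p = 0.0113).

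For each member, the genes whose log2(FPKM + 1) followed it most closely over the 12 libraries were looked up, as a description of points that share library, depth and tissue makeup. For Bcl2l11 they were Khsrp (Pearson r = 0.975, Spearman rho = 0.958), Serp1 (0.973, 0.979) and Adnp2 (0.969, 0.888). For Bid they were Gm43814 (r = 0.904, rho = 0.937), Zdhhc23 (0.897, 0.790) and Egln3 (0.893, 0.846). For Bak1 they were Mov10 (0.989), Desi1 (0.988) and Hars (0.986). For Bax they were 3 ribosomal protein genes, Rps13 (0.931), Rplp1 (0.925) and Rpl27a (0.906). Bcl2 was followed by Sirt7 (0.971), Gripap1 (0.965) and A630001G21Rik (0.960), and Bcl2l2 by Reep5 (0.962), Hebp1 (0.952) and Evi5l (0.951), both of which had 1 Stat3 ko library far above the rest. Bcl2l1 was followed by Rab11fip4 (0.923), Mfsd2a (0.910) and Sgk1 (0.869), Mcl1 by Scml4 (0.903), Snhg6 (0.900) and Gm16170 (0.898), Bad by Nudt22 and Psmb5 (0.948 each) and Spcs1 (0.945), and Bbc3 by Ccdc125 (0.926), Dph5 (0.907) and Pms2 (0.902). Within the family, Bak1 and Bcl2l11 were the most alike pair by Pearson r (r = 0.847, rho = 0.594). By Spearman rho the most alike were Bcl2l1 and Mcl1 (r = 0.51, rho = 0.72). Bid and Bcl2l11 had r = -0.041 and rho = -0.154.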

How the data were processed

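Gene expression was measured by RNA sequencing in 12 libraries. Trimmomatic, STAR and HTSeq, along with limma and edgeR, stand in the submitters' processing notes, with the builds GRCm38 and mm10, and versions, roles and strand are not given in the sources used here. The authors deposited FPKM per gene, with gene length and coordinates, and 2 comparison tables with raw counts, log2 fold changes and p-values for genes with p under 0.05. FPKM times gene length gave whole counts (within 0.01 read) for 100% of genes once 1 total per library was solved, and 0 of 54472 deposited counts differed from them. Coordinates of 9 of the 10 members were the same in GENCODE M21 (GRCm38), and Bad differed, with a deposited length of 2007 bases against 2558 exon bases there.

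The 13643 genes that reached 1 FPKM in 4 or more libraries were tested with limma 3.58.1 in R 4.3.3, with an intensity trend, on log2(FPKM + 1), a scale that understates changes of low genes. All 3 groups shared 1 fit and 1 spread per gene, tests were two-sided, and called means a p under 0.05 after Benjamini-Hochberg adjustment. Intervals are 95%. The labels do not say how samples within a group are separate, and p-values thus measure only the spread between these samples. The alternatives were the recovered counts in DESeq2 1.42.0 or edgeR 4.0.16, array weights, only the compared groups, quantile normalization, scaling by median of ratios, a filter at a mean of 5 FPKM, no filter, a pseudocount of 0.1, each library left out, and the 3 libraries above 2% mitochondrial counts left out. For the pathway lists, leaving out libraries was added after the data were seen. Python 3.11.15 with pandas 2.3.3, numpy 2.4.6, scipy 1.17.1 and matplotlib 3.10.9 made the tables and figures.

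The members and the lists were chosen with earlier results of these data known. All members are named. Of each list, up to 4 called genes per comparison with the lowest adjusted p are named, and for each member the 3 genes with the highest Pearson r. 1 result of the caspase list is not reported here. Genes outside this rule are named where a count of 5 or fewer needed it, and Btg2 for its value in the authors' table. Under other observations, Bnip3, Bcl2l14 and the Bcl2a1 genes are also named outside it, though limma did not call them in the reported fit.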

Additional observations from a re-analysis of the deposited data

Results flagged for a closer look

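In Chi3l1 ko glands, Bax in Chi3l1 ko 4 stood at 18.7 FPKM, against 22.8 to 23.2 FPKM in the other 3 libraries of the group. Its gap to the nearest library was 0.922 of the range of the group, above Dixon's 95% critical value for 4 samples. It was the 1 such value among 30 sets of 4 libraries (10 genes in 3 groups), where chance gives about 1 in 20. Without Chi3l1 ko 4 the difference between Chi3l1 ko and WT was -0.23 instead of -0.30.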

How the results depend on the processing

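No member was called in Chi3l1 ko against WT under any of the 22 alternatives. In Stat3 ko against WT the count of called members was 1 as reported, 0 with no filter and with only the compared groups, and 2 with DESeq2 (Bcl2l11 and Bid), and it ranged from 0 to 2 with a library left out. The 1 member called was Bid and not Bcl2l11 with array weights, without Stat3 ko 1 and without the libraries above 2% mitochondrial counts. In Stat3 ko against Chi3l1 ko the count was 0 as reported and 1 with edgeR, DESeq2, quantile normalization, median-of-ratios scaling and a filter at a mean of 5 FPKM (Bcl2l11 in each), and 1 with array weights and without the libraries above 2% mitochondrial counts (Bid in both). It ranged from 0 to 2 with a library left out. Testing more genes with no filter and fewer libraries with only the compared groups are part of how those alternatives are built, and the cause of the other changes was not tested. Over 657 alternative fold changes of the 30 member results, 629 kept the direction or stayed uncalled, 16 passed the threshold only there, 12 no longer passed it and 0 called values changed sign, while 11 uncalled results near 0 changed sign somewhere. Among all genes, calls in Stat3 ko against WT numbered 1911 as reported, 530 with only the compared groups, 1149 with no filter, 1214 without the libraries above 2% mitochondrial counts and 3633 with DESeq2. In Stat3 ko against Chi3l1 ko they numbered 1799 as reported, 496, 1119, 1493 and 3261. No paired analysis was possible because the labels give no replicate numbers that groups share.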

Other observations

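Bnip3, a hypoxia-induced family gene of mitochondrial clearance that was chosen after its values were seen, stood at 121, 35.5, 12.2 and 14.2 FPKM in Stat3 ko 1 to 4, at 4.95 to 20.8 in Chi3l1 ko glands and at 6.18 to 9.49 in WT glands. All Stat3 ko libraries were above all WT libraries, and the share of all genes apart in this direction was not computed. The difference was 1.92 ± 0.63 by limma (adjusted p = 0.0622), which did not pass, and 2.72 by edgeR (0.0318), which did. Without the libraries above 2% mitochondrial counts Bnip3 was called higher against both other groups. Bcl2l14, also chosen after its values were seen, stood at 2.73, 5.13, 6.98 and 7.06 FPKM in Stat3 ko 1 to 4 and at 8.25 to 9.99 in WT glands, a difference of -0.69 ± 0.22 (limma adjusted p = 0.0558). The survival genes Bcl2a1a, Bcl2a1b and Bcl2a1d are near-identical copies of a gene of blood cells, and reads may be split between them. They averaged 6.14 ± 2.99, 4.26 ± 1.67 and 3.67 ± 1.92 FPKM in Stat3 ko glands and 3.91 ± 1.14, 3.17 ± 1.58 and 1.85 ± 0.589 in WT glands (SD, n = 4). The groups overlapped for each gene, and limma did not call the differences (adjusted p = 0.382, 0.473 and 0.166).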
